A study of Homo sapiens with 9 samples.

Results

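The genes described here are 10 of the 60683 gene entries measured in the series: ATF4, the transcription factor at the centre of the integrated stress response, and 9 genes that act with it or are known targets of it, namely ATF3, DDIT3, CEBPB, CEBPG, CHAC1, TRIB3, SESN2, PPP1R15A and ASNS. They were taken by symbol, and all 10 matched a single Ensembl entry. They were selected on measured values of these libraries: a wider list of stress genes had lower counts in both transfected clones than in parental cells. The values against parental cells below are therefore a description without a test for these 10 genes. The direct comparison of the clones with each other was not used in the choice and was tested.

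The cells were HEK293T, an established line derived from human embryonic kidney that expresses large T antigen of SV40. The parental cells had not received a reporter. Clone 15 and clone 37 each grew from a single sorted cell after the piggyBac transposon had placed a pair of reporters in the genome. ATG-(CAG)60-Myc-NLuc has a tract of 60 CAG units before the Myc-tagged NanoLuc luciferase, and its companion ATG-(CAG)0-Myc-FLuc, with firefly luciferase, has 0 such units. Both clones carry both reporters, and the labels give their expression as high in clone 37 and low in clone 15. All cells grew in the same medium, and no drug or stress treatment is named for these samples. Each level is represented by a single clone, so reporter level and any other property of a clone cannot be told apart.

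The integrated stress response begins when a kinase that senses amino acid shortage, unfolded protein in the endoplasmic reticulum, double-stranded RNA or mitochondrial and haem stress phosphorylates the alpha subunit of the initiation factor eIF2. General translation then slows, while translation of ATF4 increases because of short upstream reading frames in its mRNA. ATF4 pairs with other basic leucine zipper proteins, such as the C/EBP family, and activates genes for amino acid supply, redox balance and, when stress lasts, cell death. Since ATF4 is controlled largely at translation, its mRNA level is not a measure of its protein.

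RNA depleted of ribosomal RNA was sequenced from 9 libraries, 3 for each group, with reads of 75 bp for parental cells and clone 37 and of 100 bp for clone 15. What the read length and what clone 15 itself brings to a value cannot be told apart. Counts on the transcript strand summed to between 10334090 and 38093340 per library, and each clone 15 library was deeper than all others. Nothing in the labels says that replicates were separate cultures, so the tests measure the spread between these libraries, which may be technical. Parental replicate 2 stood apart from the other parental libraries, with a chi-square per gene of 11.4 against replicate 1 and 11.6 against replicate 3, where replicates 1 and 3 gave 1.99. In the deeper clone 15 libraries, replicate 2 gave 9.97 and 8.19 against replicates 1 and 3, which gave 4.53 between them. Multimapping pairs were 4.59% to 5.98% of all pairs in clone 15, 10.4% to 11.7% in clone 37 and 11.9% to 13.95% in parental cells. Pairs mapped to no annotated gene were 33.7% to 34.6% in clone 15, 25.7% to 29.9% in clone 37 and 26.4% to 28.8% in parental replicates 1 and 3, with 19.2% in parental replicate 2. The part of these measures in the results below was not tested. All 7 genes listed as markers of the HEK293 line (VIM, KRT8, KRT18, NEFL, NEFM, INA and PAX2) exceeded 1 CPM (a gene's counts per 1000000 gene counts of its library) in each group. Their summed level was 1269 to 1559 CPM in parental cells, 4036 to 4188 in clone 15 and 778 to 845 in clone 37. NEFM and NEFL differed between the groups, with means of 559 and 235 CPM in parental cells, 2727.5 and 716 in clone 15 and 137 and 60.7 in clone 37, while VIM had 545, 547 and 543. Of 10 markers of blood, liver, endothelial, mesenchymal and heart cells, COL1A1 made up most of the summed level, with a mean of 34.4 CPM in parental cells, 72.7 in clone 15 and 19.5 in clone 37. CD3E and HBB were at 0 in all libraries, and the summed level of the 10 was 34.7 to 37.0 CPM in parental cells, 49.5 to 109 in clone 15 and 19.8 to 23.2 in clone 37. The part of the marker differences was not tested either.

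ATF4 binds DNA with C/EBP proteins at composite sites, here searched as TGATGNAA on both strands in RefSeq promoter windows of GRCh38.p14 (250 bases before to 50 after an annotated start). The 10 genes had 18 such windows. The motif was found in 1 window each of ASNS, ATF3, CEBPG and CHAC1, thus in 4 of 10 genes, and in 4.46% of the 27305 genes with a window (3.62% of 35116 windows). The 4 sites are shown because they are the known type of ATF4 element next to genes that were lower in both clones. The palindrome TGACGTCA, bound by ATF and CREB proteins, was found in 1 gene, PPP1R15A, and in 1.85% of all windows. Capitals mark the motif, and each line reads along the gene's own strand in 30 bases, so the CHAC1 site is the motif on the opposite strand.
ASNS: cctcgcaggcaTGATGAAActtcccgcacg
CEBPG: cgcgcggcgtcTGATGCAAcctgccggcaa
CHAC1: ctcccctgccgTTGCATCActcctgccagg
ATF3: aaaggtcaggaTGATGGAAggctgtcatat
PPP1R15A: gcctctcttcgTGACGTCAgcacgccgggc
These windows lie at chr7:97872458-97872487 (minus strand), chr19:33374060-33374089, chr15:40953251-40953280, chr1:212565205-212565234 and chr19:48872352-48872381 (plus strand). The motifs begin 68 bases before the start in ASNS, 42 in CEBPG, 209 in CHAC1, 191 in ATF3 and 58 in PPP1R15A. In GENCODE 29 the ASNS and CHAC1 motifs also fall inside an exon of another transcript of the same gene. The palindrome TTGCGCAA of C/EBP proteins and the endoplasmic reticulum stress element were in 0 of the 18 windows, and in 0.151% and 0.0769% of all windows. A match is a run of letters and not a measured binding site.

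The first question was how the 10 genes stood in the clones relative to parental cells. In clone 37 all 10 genes were below parental cells in each library, and 28.6% of the 16501 genes tested were below in each library in the same way. In clone 15 this held for 7 of 10 genes, against 28% of 17703 genes tested. Because the choice of the genes used these comparisons, nothing is read from those counts. The median log2 fold change of the 10 genes was -0.98 in clone 37 and -0.59 in clone 15, where the median of all tested genes was 0.02 in both. Fold changes are from edgeR's quasi-likelihood fit, each with its standard error (SE). At an adjusted p under 0.05, 54% of all tested genes were called in clone 37 and 51.4% in clone 15, so a difference from parental cells was common in these clones. Both comparisons use the same 3 parental libraries. RNA was taken from whole cultures, in which fewer cells of a kind and less RNA per cell cannot be told apart.

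**Figure D1:**
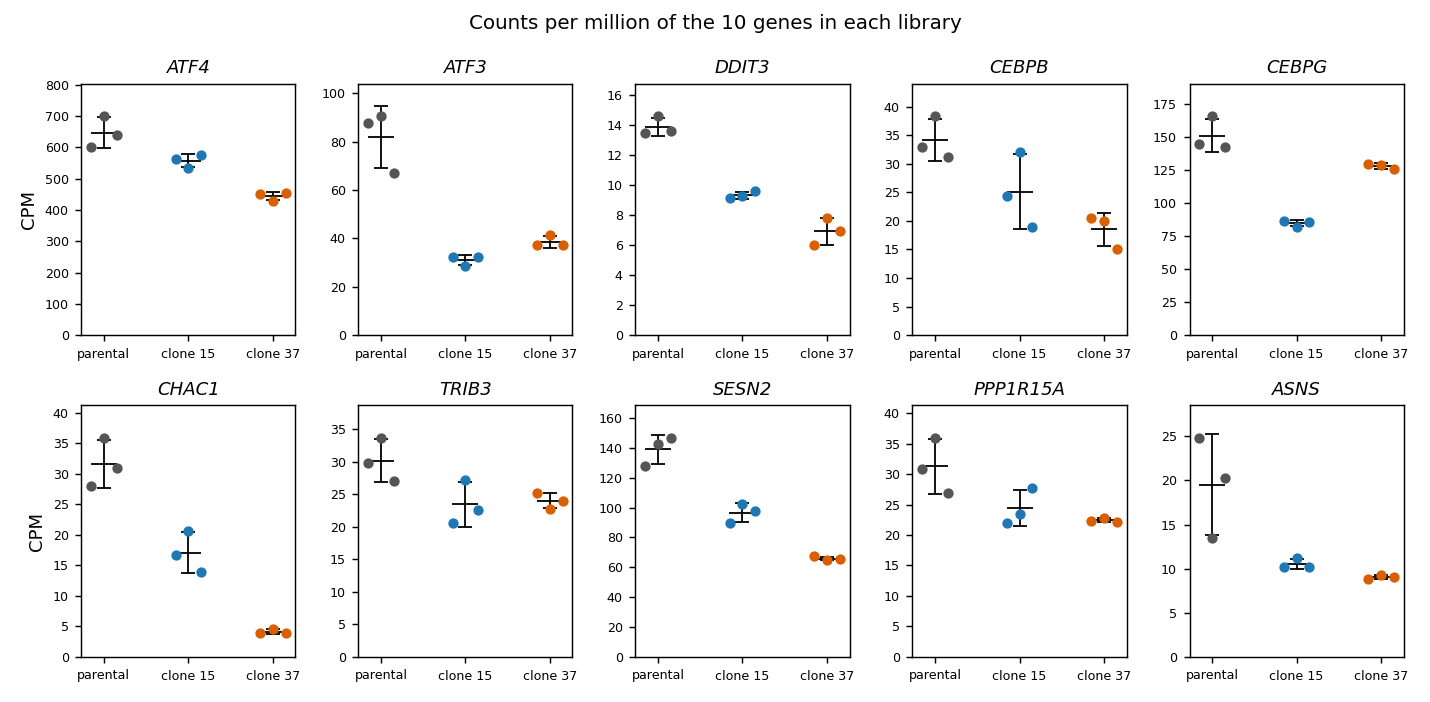
Level (CPM) of each of the 10 genes in each library, from 0 on each vertical axis; points are replicates 1 to 3 from left to right, and bars are the mean with its SD (n = 3). Clone 37 lies below parental cells for all 10 genes, while clone 15 overlaps parental cells for CEBPB, TRIB3 and PPP1R15A.

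ATF4 (ENSG00000128272, chromosome 22, 39519695 to 39522685 on GRCh38, GENCODE 29) had 602, 699 and 640 CPM in parental replicates 1 to 3. It had 563, 535 and 575 CPM in clone 15, and 450, 429 and 455 CPM in clone 37. The groups did not overlap, with parental cells highest and clone 37 lowest. Clone 37 stood at a log2 fold change of -0.57 (SE 0.07) from parental cells, clone 15 at -0.25 (SE 0.09). In clone 15 the value was -0.16 without parental replicate 2 and -0.45 once trends with GC and length had been removed from each library. Of the 75-base words of the longest ATF4 transcript, 10.1% also occur in the pseudogenes ATF4P4 and ATF4P3. Part of its reads may thus be left out of counts of uniquely mapped reads, which was not measured.

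Of the 4 other factors, ATF3 had the lowest log2 fold change in clone 15 and a value close to that of DDIT3 in clone 37. ATF3 (ENSG00000162772, chromosome 1, 212565334 to 212620777), a bZIP repressor induced by many stresses, had 87.9, 90.4 and 67.0 CPM in parental cells. It had 32.2, 28.7 and 32.4 CPM in clone 15 and 37.3, 41.4 and 37.1 CPM in clone 37. Clone 15 was thus the lowest group, with a log2 fold change of -1.43 (SE 0.11), against -1.11 (SE 0.11) in clone 37.

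DDIT3 (ENSG00000175197, chromosome 12, 57516588 to 57521737), which encodes the factor CHOP and is linked to cell death under lasting stress, had 13.5, 14.6 and 13.6 CPM in parental cells. It had 9.14, 9.26 and 9.60 CPM in clone 15 and 6.03, 7.84 and 6.96 CPM in clone 37, and no group overlapped another. Clone 37 stood at a log2 fold change of -1.03 (SE 0.13), clone 15 at -0.61 (SE 0.13). On the same strand DDIT3 is overlapped by AC022506.1, a protein-coding entry that holds 3.12% of its 75-base words, and reads over both were not counted for either. It lies opposite MARS1 and MBD6, and the strand opposite to DDIT3 held 48.6% of its stranded counts in parental cells, 59.5% in clone 15 and 57.9% in clone 37.

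CEBPB (ENSG00000172216, chromosome 20, 50190734 to 50192689), a partner of ATF4, had 32.9, 38.3 and 31.2 CPM in parental cells, 24.3, 32.1 and 18.9 CPM in clone 15 and 20.5, 19.9 and 15.1 CPM in clone 37. Clone 15 replicate 2, the library furthest from the others of that clone, lay above parental replicate 3, and clone 15 had the widest relative spread of the 10 genes in that clone, 26.3% (SD over mean, n = 3). For CEBPB the log2 fold change came to -0.92 (SE 0.11) in clone 37, and to -0.47 (SE 0.17) in clone 15. Without clone 15 replicate 3, the lowest library of that clone, the latter was -0.30.

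CEBPG (ENSG00000153879, chromosome 19, 33373330 to 33382686), a C/EBP protein without an activation domain that pairs with ATF4, had 145, 166 and 143 CPM in parental cells. It had 86.3, 82.2 and 85.6 CPM in clone 15 and 130, 129 and 126 CPM in clone 37. Here clone 15 stood well below the other groups, with a log2 fold change of -0.87 (SE 0.09), and clone 37 lay just under parental cells at -0.27 (SE 0.07), or -0.58 relative to its chromosome neighbours.

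Among the target genes, CHAC1 showed the lowest level relative to parental cells in clone 37, while in clone 15 it was close to ASNS. CHAC1 (ENSG00000128965, chromosome 15, 40952962 to 40956519), which degrades glutathione, had 28.03, 35.8 and 31.0 CPM in parental cells, 16.7, 20.5 and 13.8 CPM in clone 15 and 3.93, 4.55 and 3.97 CPM in clone 37. These clone 37 values rest on 43, 47 and 49 counts. The 3 groups did not overlap, and clone 37 was at 12.8% of the parental level in the fit (log2 fold change -2.96, SE 0.13), against 52.7% in clone 15 (-0.92, SE 0.13).

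SESN2 (ENSG00000130766, chromosome 1, 28259527 to 28282491), a leucine sensor that restrains the growth kinase mTORC1, had 128, 143 and 147 CPM in parental cells. It had 89.8, 102 and 97.6 CPM in clone 15 and 67.3, 64.7 and 65.6 CPM in clone 37, again in 3 separate steps. This gave log2 fold changes of -1.11 (SE 0.06) for clone 37 and of -0.56 (SE 0.08) for clone 15.

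The 2 feedback genes were close to each other in level and in change, though not in clone 37 relative to chromosome neighbours. TRIB3 (ENSG00000101255, chromosome 20, 362835 to 397559), a pseudokinase that binds and restrains ATF4, had 29.9, 33.7 and 27.0 CPM in parental cells, 20.5, 27.2 and 22.7 CPM in clone 15 and 25.2, 22.8 and 24.0 CPM in clone 37. Clone 15 replicate 2, again the library furthest from the others of that clone, lay within the parental range. Both clones stood at similar log2 fold changes, -0.36 (SE 0.10) for clone 37 and -0.40 (SE 0.12) for clone 15. Relative to chromosome neighbours they were -0.61 and -0.80.

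PPP1R15A (ENSG00000087074, chromosome 19, 48872392 to 48876057) encodes GADD34, which brings protein phosphatase 1 to eIF2alpha and so ends the response. It had 30.9, 35.9 and 26.9 CPM in parental cells, 22.1, 23.5 and 27.8 CPM in clone 15 and 22.3, 22.8 and 22.2 CPM in clone 37. Clone 15 replicate 3 lay above parental replicate 3. Here clone 37 stood at -0.51 (SE 0.10) and clone 15 at -0.40 (SE 0.12). In clone 15 it was -0.26 without parental replicate 2, the highest parental library, and -0.66 relative to its neighbours. In clone 37 it was -0.17 relative to its neighbours.

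ASNS (ENSG00000070669, chromosome 7, 97852118 to 97872542) encodes asparagine synthetase and is a classical ATF4 target. It had 24.8, 13.5 and 20.3 CPM in parental cells, 10.2, 11.2 and 10.2 CPM in clone 15 and 8.86, 9.29 and 9.07 CPM in clone 37. Parental replicate 2, the library that stood apart, was the lowest parental library, and the parental spread of 29.3% (SD over mean, n = 3) was the widest of the 10 genes. Relative to the parental mean, the fit placed clone 37 at -1.11 (SE 0.20) and clone 15 at -0.90 (SE 0.15). The level itself is uncertain. The read-through gene AC079781.5 runs over ASNS on the same strand, 80.7% of the words of the longest ASNS transcript also occur in another annotated gene, and reads that fit both were not counted for either.

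**Figure D2:**
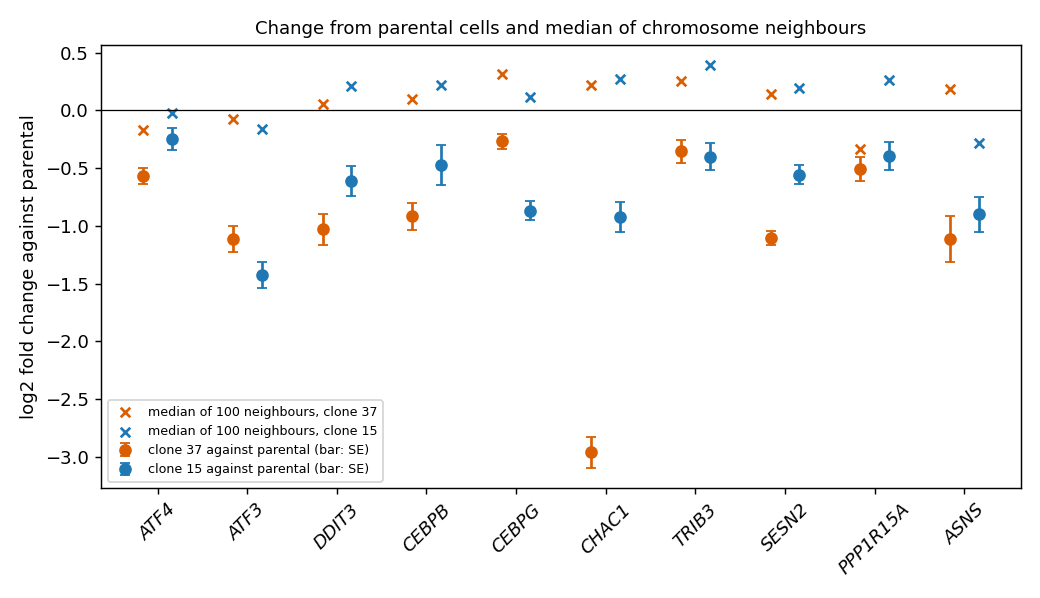
Log2 fold change of each gene against parental cells (vertical axis; points, with SE bars) in clone 37 and clone 15, with crosses for the median over its 100 nearest tested genes on the chromosome. All points lie below 0, and for 6 of the 10 genes both crosses lie above 0.

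The chromosome around each gene was examined because copy number varies in this line. For each gene the median log2 fold change over its 100 nearest tested genes was taken, and it ranged from -0.33 (PPP1R15A) to 0.32 (CEBPG) in clone 37 and from -0.28 (ASNS) to 0.39 (TRIB3) in clone 15. Relative to those neighbours the 10 genes had a median log2 fold change of -1.03 in clone 37 and -0.78 in clone 15. PPP1R15A moved most in clone 37, to -0.17, and TRIB3 in clone 15, to -0.80. ATF4 had neighbour medians of -0.17 in clone 37 and -0.03 in clone 15.

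The second question was whether the 2 clones differed from each other, and here the 10 genes were tested. In clone 37 against clone 15, 4 genes were lower (ATF4, DDIT3, CHAC1 and SESN2), 2 were higher (ATF3 and CEBPG) and 4 did not pass the test. Of 17712 genes tested, 57.7% were called, 29% lower and 28.7% higher, so 6 of 10 is close to the share of all genes. The median log2 fold change of the 10 genes was -0.27, against 0.00 for all genes tested. The values that follow are from edgeR's quasi-likelihood test with Benjamini-Hochberg adjustment over all tested genes, and read length separates the groups in the same way.

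CHAC1 differed most: from 17.0 ± 3.37 CPM in clone 15 it fell to 4.15 ± 0.348 CPM in clone 37 (SD, n = 3). Its log2 fold change came to -2.04 (SE 0.15, adjusted p 6.40e-12 by edgeR). SESN2, at 96.6 ± 6.41 CPM in clone 15, fell to 65.9 ± 1.30 CPM (SD, n = 3), which is -0.55 on the log2 scale (SE 0.06, adjusted p 1.70e-08 by edgeR). ATF4 went from 557 ± 20.4 CPM down to 445 ± 13.7 CPM (SD, n = 3), or -0.32 on the log2 scale (SE 0.05, adjusted p 7.10e-06 by edgeR). In each of these 3 genes all clone 37 libraries lay below all clone 15 libraries. For ATF4 the neighbours had a median of -0.19, and relative to them the value was -0.13 (adjusted p 0.0393), the smallest among the 18 alternatives. It was -0.15 once trends with GC and length had been removed.

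DDIT3 was lower in clone 37, at -0.42 on the log2 scale (SE 0.14, adjusted p 0.00951), with groups that did not overlap. Its call was lost in 4 alternatives, with log2 fold changes of -0.32 relative to its neighbours, -0.42 by the DESeq2 Wald test, -0.26 with GC and length trends removed and -0.32 without clone 37 replicate 1. Adjusted p ranged from 0.00536 to 0.0887 over the 18 alternatives.

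The 2 genes higher in clone 37 than in clone 15 were CEBPG and ATF3. CEBPG, at 84.7 ± 2.20 CPM in clone 15, rose to 128 ± 2.10 CPM (SD, n = 3), which is 0.60 on the log2 scale (SE 0.06, adjusted p 5.29e-10 by edgeR). ATF3, at 31.1 ± 2.10 CPM, rose to 38.6 ± 2.46 CPM (SD, n = 3), or 0.31 on the log2 scale (SE 0.08, adjusted p 0.00140 by edgeR). All clone 37 libraries lay above all clone 15 libraries for both.

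Of the genes that did not pass, CEBPB stood at -0.45 (SE 0.21, adjusted p 0.115) with overlapping groups. It was called lower in 7 of 18 alternatives, among them without clone 15 replicate 2 (-0.28) and without clone 15 replicate 3 (-0.61), the libraries with its highest and lowest clone 15 values. ASNS had -0.21 (SE 0.12, adjusted p 0.135), was called relative to its neighbours (-0.70), which had a median of 0.49, and was at -0.06 with the counts of AC079781.5 added and at -0.09 with counts thinned to equal totals. TRIB3 had 0.04 (SE 0.10, adjusted p 0.713), and its direction turned in 2 alternatives. PPP1R15A had -0.11 (SE 0.09, adjusted p 0.329), but its neighbours had a median of -0.56, and relative to them it was higher in clone 37 (0.45, adjusted p 0.000244).

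**Figure D3:**
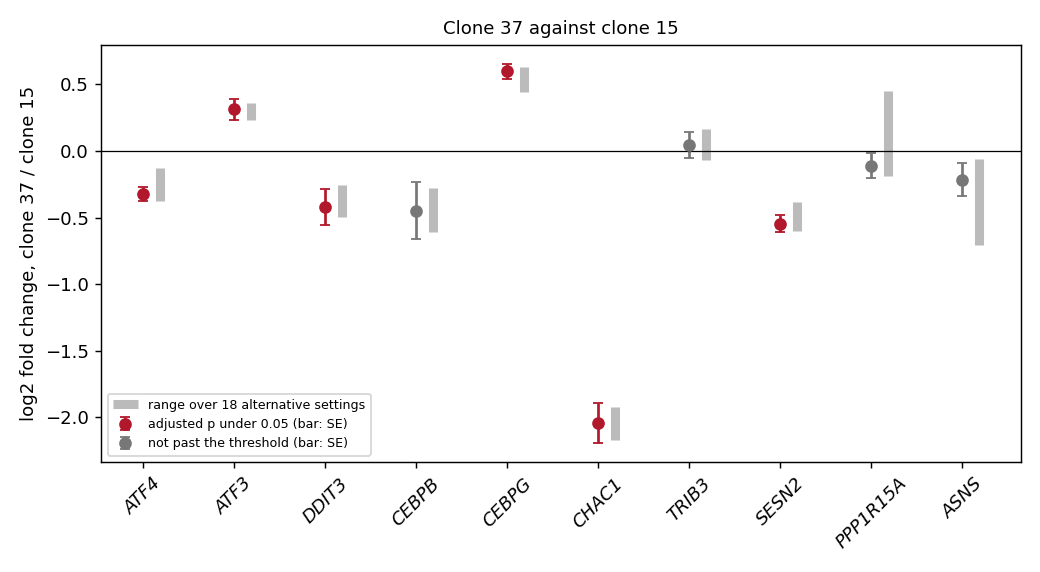
Log2 fold change of clone 37 against clone 15 for the 10 genes (vertical axis; points with SE bars, red where the adjusted p was under 0.05), with grey bars for the range over 18 alternative settings. CHAC1 stands apart at -2.04, CEBPG and ATF3 are above 0, and the grey bars of TRIB3 and PPP1R15A cross 0.

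The clones thus did not rank the genes alike. Clone 37 had the lowest mean of the 3 groups in 7 genes (ATF4, DDIT3, CHAC1, SESN2, PPP1R15A, CEBPB and ASNS). Clone 15 had the lowest in the other 3 (ATF3, TRIB3 and CEBPG). Of these 10 orderings, 6 had a difference between the clones that passed the test. That is close to the 57.7% of all tested genes that were called.

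Replicates were closest in clone 37. The relative spread of the 10 genes (SD over mean, n = 3) had a median of 4.0% in clone 37, 6.70% in clone 15 and 10.9% in parental cells. It was lowest for PPP1R15A in clone 37 (1.57%).

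To compare genes with each other, levels were divided by the length of the merged exons of each gene. Per kilobase, ATF4 was the most abundant in each group, at 257 ± 19.3 CPM per kilobase in parental cells, 222 ± 8.13 in clone 15 and 177 ± 5.46 in clone 37 (SD, n = 3). SESN2 and CEBPG followed at 40.3 ± 2.83 and 34.3 ± 2.88 CPM per kilobase in parental cells (SD, n = 3), where their libraries overlapped. In clone 37 their order was the reverse, with 29.03 ± 0.476 for CEBPG and 19.1 ± 0.378 for SESN2. ATF3, CEBPB and CHAC1 came next in parental cells, at 20.2 ± 3.18, 17.5 ± 1.88 and 15.4 ± 1.91 CPM per kilobase (SD, n = 3), and these neighbours did not differ beyond their spread. DDIT3 (10.6 ± 0.460), PPP1R15A (10.1 ± 1.45) and TRIB3 (8.79 ± 0.970) likewise overlapped from neighbour to neighbour, and ASNS was last at 4.38 ± 1.28. This place holds for its counted reads alone, since most of its sequence is shared with other annotated genes, as given above. CHAC1 went from rank 6 in parental cells to rank 10 in clone 37, at 2.02 ± 0.169 CPM per kilobase. There its libraries overlapped those of ASNS, which had rank 9 at 2.04 ± 0.0485 (SD, n = 3). With the length of the longest transcript instead, ATF4 stayed first, at 320, 276 and 220 CPM per kilobase, and ATF3 passed CEBPG in parental cells.

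**Figure D4:**
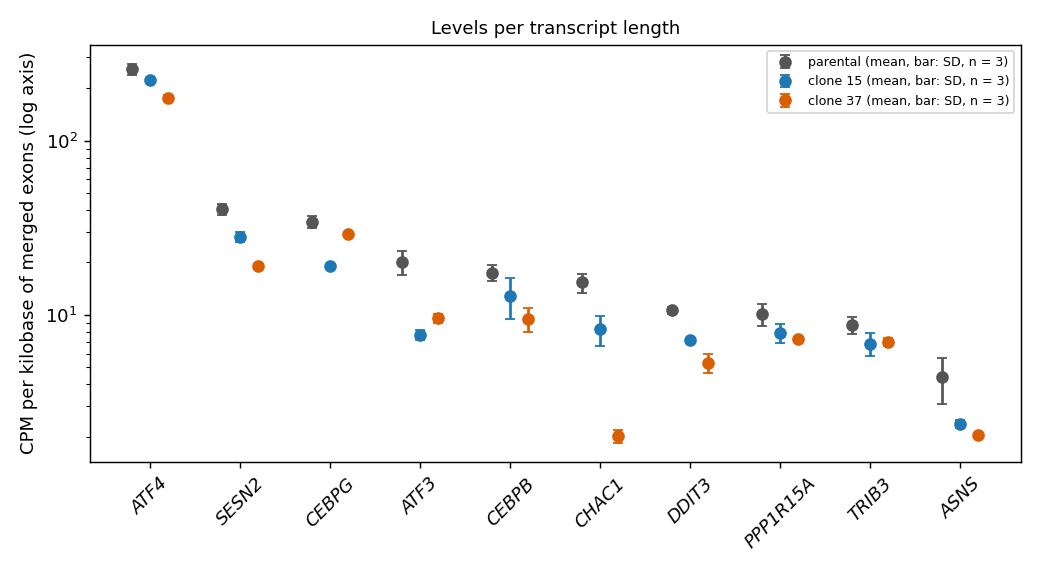
Level of each gene per kilobase of merged exons (vertical axis, log scale; mean with SD, n = 3) in the 3 groups, ordered by the parental level. ATF4 is the highest in each group, and CHAC1 in clone 37 (2.02) lies near ASNS at the bottom.

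The other genes of the pathway were taken from 7 lists by role, with 104 genes, of which 102 were tested. Of all tested genes, 27.3% were called lower and 26.7% higher in clone 37 against parental cells, and 26.2% lower and 25.1% higher in clone 15 (adjusted p under 0.05, edgeR). For the named genes, the fold change relative to the median of their chromosome neighbours is given where it differs by more than 1.5 times from the fold change printed. Against parental cells, clone 37 had 58 called lower and 12 higher, together 68.6% of those tested. Clone 15 had 54 and 12, together 64.7%. Some of these genes belong to the wider stress list behind the choice of genes here, so their counts are no independent evidence of a direction. The same holds for calls and adjusted p values of single list genes against parental cells below. Genes named for that contrast were picked as the largest changes among those called, so these values are a description. Between the clones 26 were higher and 36 lower in clone 37, together 60.8%, close to the 57.7% of all genes. By list, those called lower and higher in clone 37 than in clone 15 were 3 and 3 of 9 for the kinases and their regulators, 4 and 3 of 13 for eIF2 and eIF2B, and 1 and 3 of 4 for the phosphatase. They were 3 and 7 of 24 for the partners (median log2 fold change 0.06), 12 and 3 of 20 for amino acid supply (-0.45), 6 and 3 of 18 for the other targets (-0.01) and 7 and 4 of 14 for the ATF6 and IRE1 branches (-0.08), where 29% of all genes were lower and 28.7% higher.

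Upstream, the list of the 4 eIF2alpha kinases and their regulators held 4 activators and 1 inhibitor, IMPACT. Of these 9 genes, clone 37 had 5 called lower, IMPACT among them, and 0 higher, together 55.6% where 54% of all genes were called. Clone 15 had 6 called lower, again with IMPACT, and 1 higher, together 77.8% against 51.4% of all genes. Its median log2 fold change was -0.19 in clone 37 and -0.50 in clone 15. EIF2AK2, the kinase PKR that senses double-stranded RNA, had 167 ± 6.06 CPM in parental cells, 91.6 ± 5.27 in clone 15 and 172 ± 4.99 in clone 37 (SD, n = 3). It was lower in clone 15 (log2 fold change -0.89, SE 0.08, adjusted p 1.66e-09 by edgeR) and 0.91 higher in clone 37 than in clone 15 (SE 0.06, adjusted p 1.79e-13). Relative to its neighbours the first of these was -0.38. IMPACT, which inhibits the amino acid sensor kinase GCN2, was lower by the test in clone 37 (-1.19, SE 0.07) and in clone 15 (-0.78, SE 0.09), and relative to its neighbours the first of these was -0.43. DELE1, which relays mitochondrial stress to the kinase HRI, was lower in clone 37 than in clone 15 (-0.45, SE 0.07, adjusted p 5.63e-06 by edgeR), but at -0.10 relative to its neighbours.

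The machinery that eIF2 phosphorylation acts on was called about as often as all genes. Of 13 genes for eIF2, its exchange factor eIF2B and related initiation factors, clone 37 had 5 called higher and 2 called lower, while clone 15 had 5 and 1, in all 53.8% and 46.2% against 54% and 51.4% of all genes. EIF2B5, the catalytic subunit of eIF2B, was higher in clone 15 (0.70, SE 0.08, adjusted p 1.27e-07) and lower in clone 37 than in clone 15 (-0.96, SE 0.07, adjusted p 1.15e-12). EIF2B2, a regulatory subunit, had the same pattern, at 0.64 (SE 0.09) in clone 15 against parental cells and -0.76 (SE 0.07) between the clones, both called. Relative to neighbours the difference between the clones was -0.56 for EIF2B5 and -0.24 for EIF2B2. Of the 4 phosphatase genes beside PPP1R15A, clone 37 had 2 called lower and 0 higher, while clone 15 had 2 and 1. Of the 3 catalytic subunits, PPP1CA was higher in clone 15 (0.70, SE 0.08, or 0.30 relative to neighbours) and PPP1CB lower (-1.10, SE 0.09), both called. PPP1CC, the most abundant of them by CPM, had -0.09 (adjusted p 0.400 by edgeR), or -0.17 relative to neighbours.

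Among 24 partners and relatives of ATF4 and proteins that control its turnover, clone 37 had 9 called lower and 4 higher, while clone 15 had 11 and 1. In all 54.2% and 50% of the list were called, close to the 54% and 51.4% of all genes. NUPR1, a small stress protein of chromatin, had 11.9 ± 1.75 CPM in parental cells, 1.78 ± 0.268 in clone 15 and 2.34 ± 0.246 in clone 37 (SD, n = 3). FOS, a subunit of AP-1, had 8.15 ± 1.87, 1.66 ± 0.246 and 1.35 ± 0.344 CPM in the same order (SD, n = 3). Both were called lower in both clones. JDP2, a bZIP repressor, was lower in clone 37 than in clone 15 (-1.60, SE 0.14, adjusted p 1.11e-10 by edgeR). CEBPD, a further C/EBP factor, was higher in clone 37 than in clone 15 (2.21, SE 0.20, adjusted p 2.79e-10), at 8.46 ± 0.387 against 1.83 ± 0.675 CPM (SD, n = 3).

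Downstream, the other known targets of ATF4 are the genes closest to the choice made here, so their counts against parental cells are a description from which nothing is read. In the list for amino acid supply, 18 of 20 genes were called lower and 0 higher in clone 37 (median log2 fold change -0.74), where 27.3% of all genes were called lower. Clone 15 had 12 called lower and 1 higher (median -0.48), against 26.2% of all genes called lower. SLC1A4, a transporter of serine and other neutral amino acids, had 42.1 ± 2.98 CPM in parental cells, 22.3 ± 0.986 in clone 15 and 10.3 ± 1.07 in clone 37 (SD, n = 3). PHGDH, the first enzyme of serine synthesis, had 724 ± 24.8, 507 ± 14.4 and 282 ± 6.50 CPM in the same order (SD, n = 3). WARS1, a tryptophanyl-tRNA synthetase, was lower in clone 37 than in clone 15 (-0.91, SE 0.06, adjusted p 1.10e-13 by edgeR), or -0.39 relative to its neighbours, and in clone 15 against parental cells it had -0.06 (adjusted p 0.554), or -0.18 relative to neighbours.

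Of the 20 other known targets, 18 were tested, and GDF15 and FGF21 had too few counts. Clone 37 had 12 called lower and 2 higher (median -0.55), where 27.3% of all genes were called lower and 26.7% higher. Clone 15 had 13 and 2 (median -0.55), where 26.2% of all genes were called lower and 25.1% higher. DDIT4, an inhibitor of mTORC1, had 287 ± 27.4 CPM in parental cells, 69.0 ± 6.21 in clone 15 and 49.2 ± 8.59 in clone 37 (SD, n = 3). ADM2, a secreted peptide of the adrenomedullin family, had 28.8 ± 1.46, 8.44 ± 1.42 and 9.54 ± 1.68 CPM in the same order (SD, n = 3). VLDLR, a lipoprotein receptor, was lower in clone 37 than in clone 15 (-0.75, SE 0.09, adjusted p 3.61e-08 by edgeR), or -0.29 relative to its neighbours. MAP1LC3B, an autophagy protein, was higher there (1.39, SE 0.06, adjusted p 5.61e-17), or 0.63 relative to its neighbours.

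The branches of the unfolded protein response that run beside ATF4 go through ATF6 and IRE1. Of their 14 genes, clone 37 had 10 called lower and 1 higher (median -0.42). Together these were 78.6% of the list, where 54% of all genes were called and 27.3% were called lower. Clone 15 had 9 and 1 (median -0.29), together 71.4%, where 51.4% of all genes were called and 26.2% were called lower. As for the other lists, these counts against parental cells are no independent evidence of a direction. PDIA4, a protein disulphide isomerase, was lower in clone 37 than in clone 15 (-1.23, SE 0.06, adjusted p 1.75e-16 by edgeR), or -0.34 relative to its neighbours. DNAJB9, a chaperone of the endoplasmic reticulum, was higher there (1.05, SE 0.12, adjusted p 2.14e-08).

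**Figure D5:**
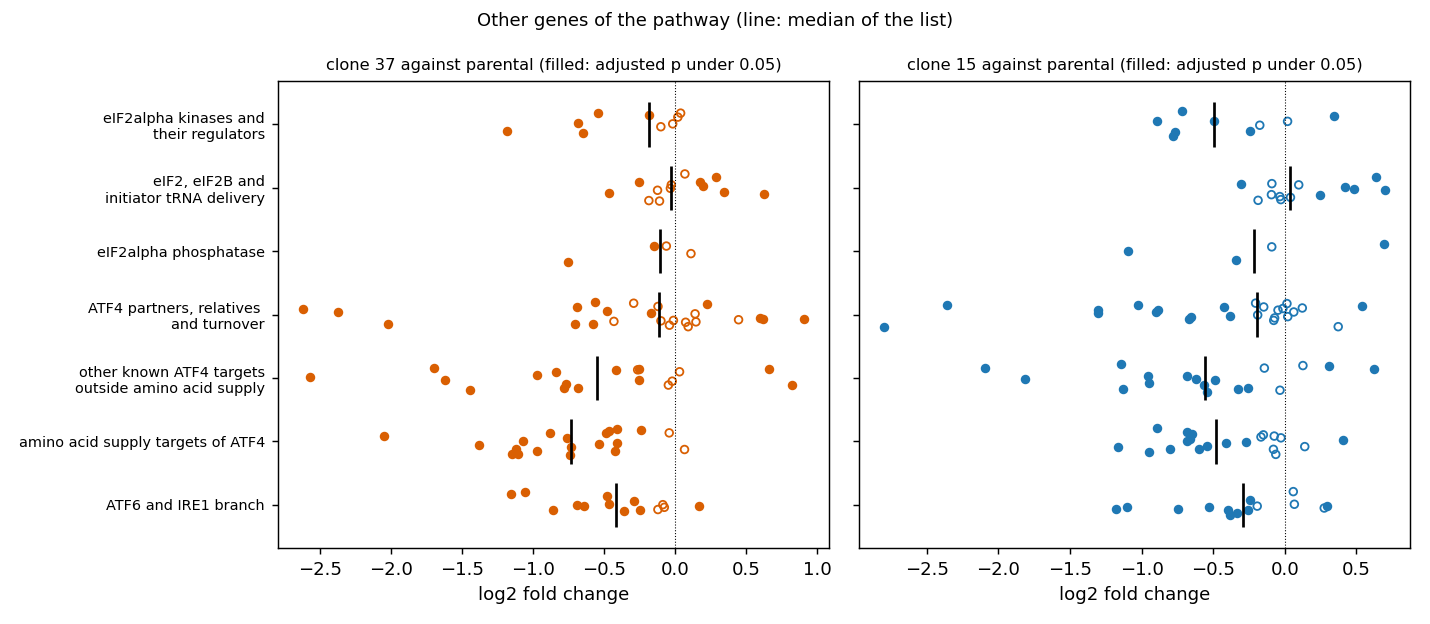
Log2 fold change (horizontal axis) against parental cells of the 102 tested genes in 7 lists of the pathway, for clone 37 (left) and clone 15 (right); each point is a gene, filled where the adjusted p was under 0.05, spread vertically at random within its list, and lines are list medians. The medians of the amino acid supply list lie at -0.74 and -0.48, and those of the eIF2 and eIF2B list at -0.03 and 0.04.

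The genes whose pattern over the 9 libraries was most like the mean pattern of the 10 genes were sought among 11305 other protein-coding genes with a mean of at least 5 CPM. Likeness was the root mean square difference of standardised log2(CPM + 1), for which the median gene had 1.37. The 5 closest were RTN4 (0.0874), COL4A2 (0.117), DDIT4 (0.123), OSBPL1A (0.129) and COPA (0.134). RTN4, a protein that shapes the endoplasmic reticulum, had 152 ± 6.10 CPM in parental cells, 111 ± 2.96 in clone 15 and 97.9 ± 1.23 in clone 37 (SD, n = 3). Of the 10 genes themselves, DDIT3 was closest to their mean pattern (0.290) and CEBPG furthest from it (0.905).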

How the data were processed

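For each of 9 libraries the authors deposited raw counts of read pairs per gene. Per the submitters' processing notes, FastQC 0.11.9, STAR 2.7.10a and genome build hg38 were used. The annotation release, trimming and filters are not given in the sources used here. Per the labels' protocols, the directional libraries took 500 ng of RNA as input and 13 PCR cycles. Files laid out like these come from STAR's own counting, in which multimapping reads and reads over several genes are left out.

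Column 4 was used, which held 92.6% to 94.0% of stranded counts. The 4 summary entries, 40.3% to 49.1% of read pairs, stayed out of totals and tests. CPM is counts over the library's gene total. TMM factors were 0.948 to 1.02. Genes were filtered with filterByExpr and fitted with edgeR 4.0.16 (glmQLFit, robust, glmQLFTest) in R 4.3.3 on the 6 libraries of each comparison, and Benjamini-Hochberg adjusted p values were called under 0.05. The SE is the log2 fold change over the square root of F. Positions, lengths and shared 75-base words on the same strand are from GENCODE 29. The test was tested on simulated data.

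The genes and lists were chosen with earlier results of these data known. All 10 genes are named. Of each list, the 2 genes most changed among those called between the clones, and the 2 among those called in either comparison with parental cells, are named (mean of at least 1 CPM). Alternatives were RLE factors, DESeq2 1.42.0, other filters, unstranded counts, 1 fit of 9 libraries, a replicate block, thinning, protein-coding genes, GC and length trends, chromosome neighbours and leaving out each library. Python 3.11.15 drew the figures. The level of 1 marker gene is not reported here.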

Additional observations from a re-analysis of the deposited data

Results flagged for a closer look

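For 6 of the 10 genes the change from parental cells differed between the clones by the direct test of clone 37 against clone 15, where 57.7% of all tested genes were called. The log2 fold changes were -0.32 for ATF4, 0.31 for ATF3, -0.42 for DDIT3, -2.04 for CHAC1, -0.55 for SESN2 and 0.60 for CEBPG, as given above. The call of DDIT3 was lost in 4 of 18 alternatives.

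On the strand opposite to the genes, which the comparisons did not use, 2 genes had a higher CPM in each clone 15 library than in any parental library. The share of all genes that separate in this way was not computed, so nothing is read from their number. The clone 15 libraries were also deeper, with reads of 100 bp against 75 bp. What depth and read length bring to these values cannot be told apart from the clone. On that strand CHAC1 had 28 counts over the 3 clone 15 libraries (0.322 to 0.365 CPM) against 5 in parental cells (0.0765 to 0.216 CPM). TRIB3 had 16 (0.0812 to 0.315 CPM) against 0, and 12 of the 16 were in clone 15 replicate 1, with 2 in each of the other libraries. As a share of the stranded counts of the gene, this was 1.96% for CHAC1 in clone 15, 0.413% in parental cells and 2.80% in clone 37 (4 counts). For TRIB3 it was 0.846% in clone 15, 0% in parental cells and 0.247% in clone 37 (2 counts).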

How the results depend on the processing

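Each of the 10 genes kept a negative log2 fold change from parental cells in both clones under all 18 alternatives. Their median was -0.78 in clone 15 relative to chromosome neighbours, further from 0 than the -0.59 reported. Leaving out a library gave medians of -1.06 to -0.91 in clone 37 and -0.65 to -0.53 in clone 15. When a library was left out, all libraries of clone 37 lay below parental cells for 10 of 10 genes, and those of clone 15 for 7 to 10. Leaving out a library can only keep or raise such a count, so nothing is read from this. With all libraries, 28.6% of all tested genes in clone 37 and 28% in clone 15 lay below in the same way. On TMM-scaled CPM, an alternative chosen after seeing the data like the addition of AC079781.5 to ASNS, these counts were 10 and 7.

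Between the clones, the numbers called lower and higher were 3 to 5 and 2 when a library was left out. ATF4, ATF3, CHAC1, SESN2 and CEBPG were called in the same direction in all 18 alternatives. The direction turned for TRIB3 when counts were thinned (-0.071) and without clone 15 replicate 1 (-0.059), where leaving out a library gave -0.059 to 0.14. It turned for PPP1R15A relative to neighbours (0.45) and with GC and length trends removed (0.042). The cause was not tested.

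Same-numbered replicates did not deviate together (correlations of deviations from group means of -0.162 to 0.0228 over 9 pairs), so the numbers do not pair the libraries. With the replicate block the medians were -0.97 in clone 37 and -0.58 in clone 15, and between the clones 5 genes were called lower and 2 higher, where CEBPB was the gene added. Thin counts limit DDIT3 and CHAC1 in clone 37 most, where CHAC1 rests on 43 to 49 counts per library.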
